A study of Mus musculus with 6 samples.

Results

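Genes that mark the mesothelium and the identity of fat depots were followed in white adipose tissue of cold-exposed mice with and without Yy1 in adipocytes. The set was fixed by name and held 10 genes: Wt1, Upk3b, Upk1b, Msln, Tcf21, Hoxc9, Hoxc8, Hoxa5, Tbx15 and Shox2. Every probe set annotated to exactly 1 of these genes was taken, with no filter on brightness, which gave 9 genes among the 12393 with such a probe set, and 11 probe sets among 22626. No probe set carried Upk1b as its single gene symbol, so that gene was not analysed here.

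YY1aKO mice were YY1flox/flox with Adiponectin Cre, a transgene whose promoter drives the recombinase in fat cells. Control mice were YY1flox/flox with no Cre listed, so an effect of the transgene itself cannot be told apart from the loss of Yy1. Both groups were 8 weeks old, of mixed C57BL6 and 129 background, and were kept at 4 °C for 4 days before sampling, so no mouse at normal housing temperature is part of the comparison. Each group had 3 samples on 1-colour Affymetrix arrays, 1 array per sample. Nothing in the labels says whether each sample was a separate animal. The p-values therefore set the group difference against the variation between these samples, estimated with information from all probe sets, which may not be that between animals. The labels contradict each other on the tissue: EWAT stands in the titles and visceral in the tissue entry, whereas descriptions and the series title say subcutaneous, and the series title speaks of a brown fat-specific deletion.

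The mesothelium is the thin sheet of epithelium-like cells that lines the body cavities and covers the organs and fat inside them. Visceral fat such as the epididymal pad is covered by it, while subcutaneous fat lies outside the cavities and has no such cover. Fat depots also keep a positional identity, written in the Hox genes and in other developmental transcription factors of their adipocytes and progenitors. In mice, Tbx15, Shox2, En1 and Hoxc9 are known for higher expression in subcutaneous fat, and Hoxa5, Hoxc8, Wt1 and Tcf21 for higher expression in intra-abdominal fat. YY1, the zinc-finger factor that was deleted, binds DNA at sites with the core CCAT and can activate or repress the genes beside them.

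Between genotypes, Hoxc9 rose 1.68-fold and Tcf21 fell to 64.8% of the control level, and the other 9 probe sets did not pass the test. The mesothelial genes Wt1, Upk3b and Msln varied more among samples of the same genotype than between genotypes, with low values in YY1aKO 3 and control 2. Tbx15 and Shox2 stayed on every array within the range of receptor genes that fat does not use. Of the 11 probe sets, 2 passed an adjusted p of 0.05 in limma (1 higher and 1 lower), where 10.2% of all probe sets did (6.54% higher and 3.66% lower). The groups did not overlap for 3 of the 11, where 37% of all probe sets showed no overlap.

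The proximal promoters of Upk3b and Tcf21 are shown, the first because Upk3b was the mesothelial gene of the set found in RefSeq's promoter table, the second because Tcf21 changed with genotype. Both are the 250 bases before the start of the gene in RefSeq's annotation of GRCm38.p6, given 5′ to 3′ on the strand of the gene, at chr5:136038246-136038495 (plus strand) for Upk3b and chr10:22820144-22820393 (minus strand) for Tcf21. Capitals mark GCCAT or its reverse complement ATGGC.
Upk3b: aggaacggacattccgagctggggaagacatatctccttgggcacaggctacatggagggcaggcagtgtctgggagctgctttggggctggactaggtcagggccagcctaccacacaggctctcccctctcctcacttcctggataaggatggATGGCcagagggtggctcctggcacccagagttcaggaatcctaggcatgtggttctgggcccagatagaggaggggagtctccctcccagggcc
Tcf21: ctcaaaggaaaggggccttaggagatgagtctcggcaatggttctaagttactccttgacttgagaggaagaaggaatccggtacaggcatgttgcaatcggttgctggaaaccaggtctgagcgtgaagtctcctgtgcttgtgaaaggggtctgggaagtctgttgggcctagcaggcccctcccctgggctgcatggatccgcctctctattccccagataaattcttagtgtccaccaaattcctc
The windows were searched on both strands for the YY1 consensus CCATNTT and for the shorter GCCAT, which share the letters CCAT and so can overlap. CCATNTT was found in neither window, and GCCAT in that of Upk3b alone, as 1 match. Over 32851 promoter windows of the same length, 12.43% held CCATNTT and 32.89% held GCCAT. Of the 10 genes, 4 were in the promoter table. The window of Hoxa5 held 1 GCCAT and no CCATNTT, and that of Shox2 held neither. The Upk3b window had 2 CpG dinucleotides and the Tcf21 window 5, while Hoxa5 had 28 and the median promoter 6.

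The arrays were comparable in overall brightness, with median intensities of 134.2 to 140.2. The deleted gene separated the groups: the brightest Yy1 probe set read 373, 323 and 315 in YY1aKO 1 to 3, against 1785, 1846 and 1596 in controls 1 to 3 (log2 difference -2.37 ± 0.11, SE, limma adjusted p = 0.0034). Its other 3 probe sets differed by -1.21, -1.03 and -0.06, of which the last did not pass. Adipocyte RNA was plentiful on all arrays, with Adipoq at 19768 to 21714 in YY1aKO and 18586 to 24774 in controls. Control 2 stood apart, and it carried transcripts of the epididymis, the duct that stores sperm and lies against the epididymal fat pad. The 13 probe sets of 10 epididymal genes summed to 290.0 to 310.0 in YY1aKO, and to 278 in control 1, 114233 in control 2 and 1029 in control 3. Sperm and testis genes summed to 294.8 to 320.2 in YY1aKO, and to 283.8 in control 1, 2803 in control 2 and 1831 in control 3. The probe sets of the named gene set are therefore shown with and without control 2 in the plot of log2 differences. Other genes and lists are given without control 2 only where stated. The part of this RNA in the results was not tested beyond that. As a description of background, 67 probe sets of 63 odorant, vomeronasal and taste receptor genes were used. Their medians lay between 12.82 and 14.73 on the 6 arrays, and the highest single value was 74.4.

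**Figure D1:**
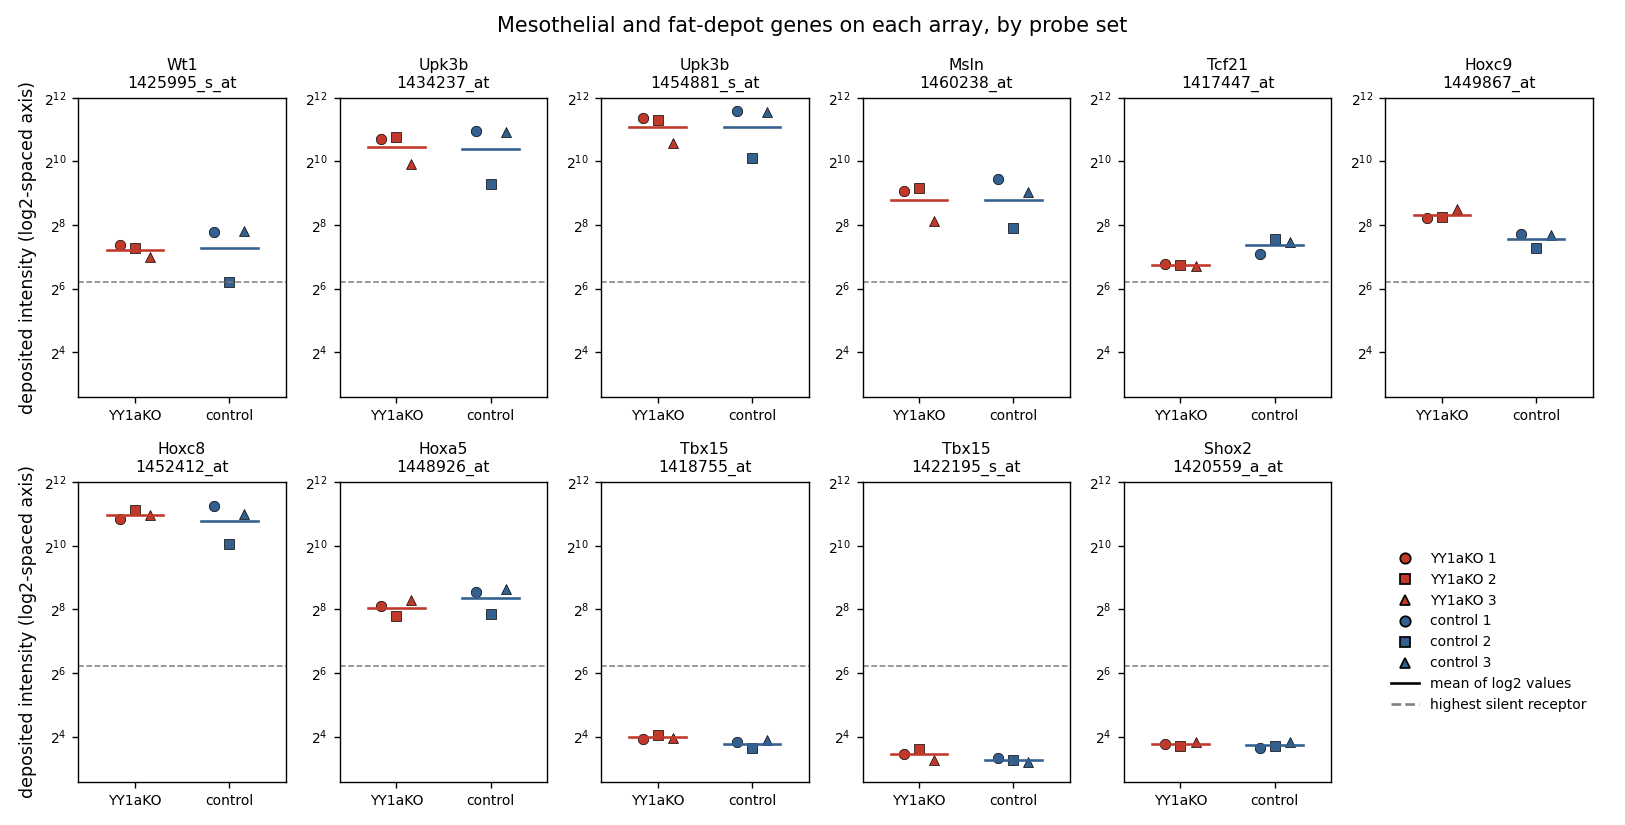
Deposited intensity (log2-spaced axis) of each probe set in the 3 YY1aKO and 3 control samples, with the mean of the log2 values as a bar and the highest silent receptor value (74.4) as a dashed line. Upk3b, Msln and Wt1 are low in YY1aKO 3 and control 2, Hoxc9 is higher and Tcf21 lower in all YY1aKO samples, and Tbx15 and Shox2 lie far under the line.

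Upk3b encodes uroplakin 3b, a membrane protein found in mesothelial cells and in the bladder lining. Its brighter probe set read 2645, 2522 and 1524 in YY1aKO 1 to 3, against 3055, 1098 and 3012 in controls 1 to 3. The groups overlapped, and the low sample of each group, YY1aKO 3 and control 2, stood below its companions. The log2 difference was 0.003 ± 0.46 (SE, 95% interval -1.11 to 1.12, limma adjusted p = 0.998). The dimmer probe set read 1685, 1739 and 960 in YY1aKO, against 1998, 626 and 1947 in controls, a log2 difference of 0.07 with an interval of -1.18 to 1.32. Both probe sets therefore showed the same order of samples within each group except for YY1aKO 1 and 2, which lay close together.

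Msln encodes mesothelin, a surface glycoprotein of mesothelial cells. It read 534, 569 and 283 in YY1aKO 1 to 3, against 693, 243 and 521 in controls 1 to 3. Here too the samples YY1aKO 3 and control 2 were lowest, and the groups overlapped (log2 difference -0.009, interval -1.13 to 1.12, limma adjusted p = 0.993).

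Wt1 encodes the zinc-finger transcription factor of the Wilms tumour locus, which is made by mesothelial cells and by progenitors of visceral fat. It read 165, 156 and 128 in YY1aKO 1 to 3, against 220, 73.9 and 224 in controls 1 to 3. The value in control 2 was the only one of the 6 that fell within the range of the silent receptors. The log2 difference was -0.05 with an interval of -1.15 to 1.05 (limma adjusted p = 0.961). Without control 2, Wt1 was lower in YY1aKO, at -0.58 ± 0.13 on the log2 scale (SE, limma adjusted p = 0.023), a fit with only 2 control samples. In the same fit Upk3b differed by -0.49 and -0.48 for its 2 probe sets (adjusted p = 0.20 and 0.24) and Msln by -0.45 (adjusted p = 0.37), none past the threshold.

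**Figure D2:**
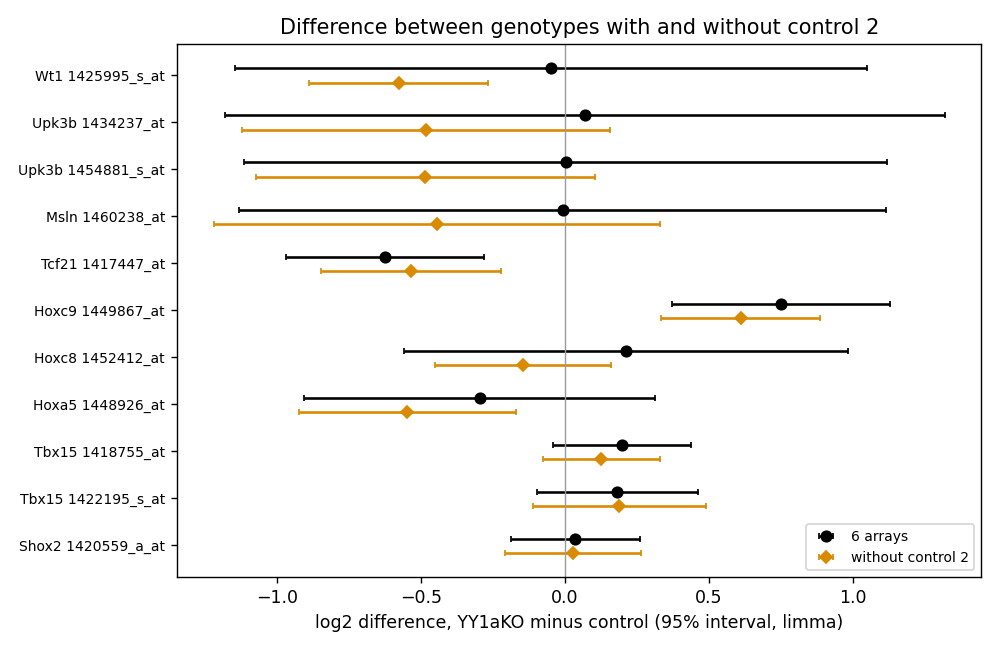
Log2 difference between YY1aKO and control for each probe set, with 95% intervals from limma, from 6 arrays (black circles) and without control 2 (orange diamonds). Hoxc9 and Tcf21 keep their sides of 0 in both fits, and the intervals of Upk3b, Msln and Wt1 are wide with 6 arrays.

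Wt1, Upk3b and Msln were low in the same single samples. In YY1aKO 3, Wt1, Upk3b and Msln stood at 79.5%, 56.1% and 59.0% (its 2 probe sets) and 51.3% of the mean of YY1aKO 1 and 2. In control 2 they stood at 33.2%, 31.7% and 36.2%, and 40.0% of the mean of controls 1 and 3. The 4 probe sets had a median log2 difference of -0.80 in YY1aKO 3 from its companions and of -1.53 in control 2, where all probe sets had medians of 0 and -0.06.

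A list of 20 other genes known from mesothelium was read beside them, of which 17 were measured by 23 probe sets. YY1aKO 3 was the lowest of its group in 20 of the 23 probe sets, while this was so for 34.6% of all probe sets. It was also the lowest in 76.5% of progenitor and fibroblast probe sets and 75% of lymph node ones. For macrophages, mature adipocytes and endothelium the shares were 55.6%, 43.75% and 20%. Control 2 was the lowest of the controls in 13 of the 23, or 56.5%, against 48.6% of all probe sets. This was 13 of the 17 probe sets other than keratins (76.5%) and 0 of the 6 of keratins. Pdpn, the dimmer Dpp4 probe set, Calb2 (within the silent range) and the keratins Krt7, Krt8, Krt18 and Krt19 were highest of the controls there. Gpm6a, a membrane glycoprotein of mesothelial and nerve cells, read 1262, 1219 and 664 in YY1aKO 1 to 3, against 1598, 616 and 1381 in controls 1 to 3 by its brighter probe set. By profile it was the closest to Msln of all annotated probe sets, with a root mean square difference of 0.099 on the log2 scale over the 6 arrays after each gene was centred on its own mean. Closest to the brighter Upk3b probe set were Fbln2 (0.077), Fn1 (0.096) and Meg3 (0.098), of which the first 2 encode matrix proteins. Closest to Wt1 were Ctsz (0.065), Adgrd1 (0.077) and the collagen gene Col5a1 (0.086). Ccdc85a (0.133) and Mcam (0.135) followed Gpm6a for Msln. These distances rest on 6 arrays, and for all these genes but Ccdc85a the lowest of the 6 values was that of control 2.

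**Figure D3:**
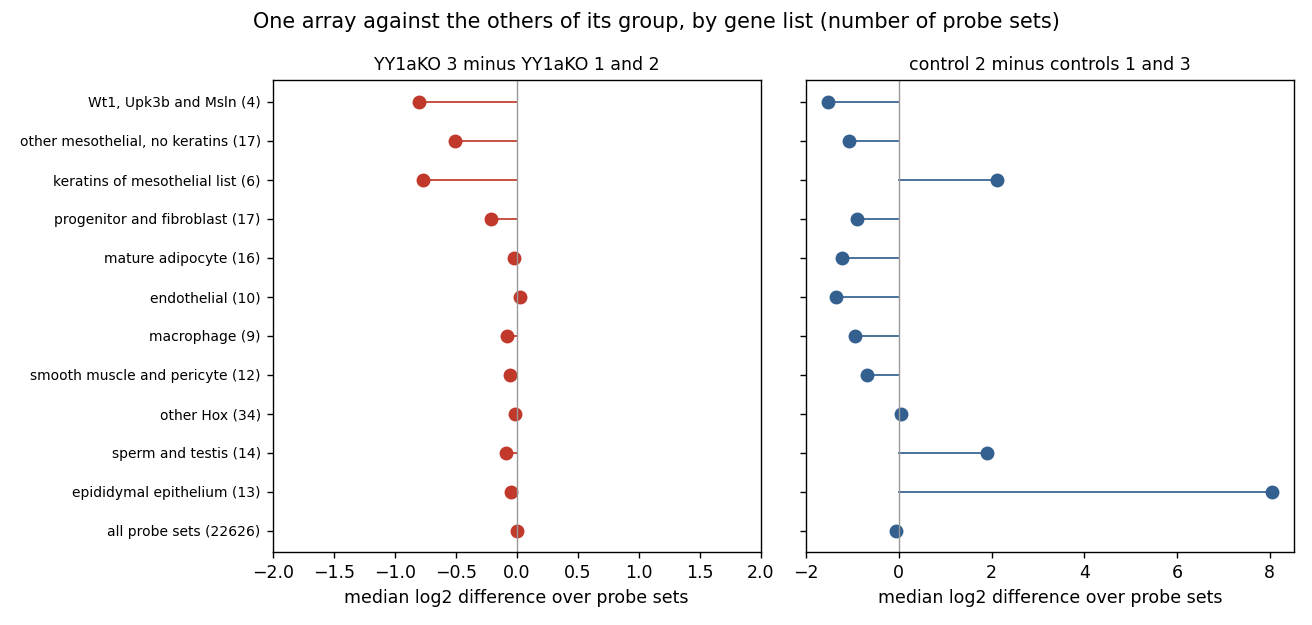
Median log2 difference of YY1aKO 3 from YY1aKO 1 and 2 (left) and of control 2 from controls 1 and 3 (right) over the probe sets of each gene list, with their number in brackets (the panels have different scales). In YY1aKO 3 the mesothelial lists and their keratins lie lowest, and in control 2 most lists of fat tissue lie below 0 while keratins, sperm genes and epididymal genes lie above it.

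The other cell types of fat did not all follow. In YY1aKO 3, the median difference from its companions was -0.21 for 17 probe sets of progenitors and fibroblasts, -0.03 for 16 of mature adipocytes, 0.02 for 10 of endothelium and -0.08 for 9 of macrophages, against -0.51 for the 17 mesothelial probe sets other than keratins. In control 2 the same lists had -0.89, -1.22, -1.35 and -0.94, against -1.08 for the mesothelial probe sets other than keratins, so there the mesothelial genes were low together with the genes of every listed fat cell type. In bulk tissue, fewer mesothelial cells and less RNA per cell cannot be told apart, and the part of the epididymal RNA in the low values of control 2 was not tested.

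Between genotypes none of the 23 other mesothelial probe sets passed in limma with 6 arrays (7 were lower and 0 higher at an unadjusted p under 0.05). Over all probe sets, 27.65% had an unadjusted p under 0.05 in either direction, and 2489 of 22626 were lower with such a p. Read in either direction, 7 of 23 was close to that 27.65%. All 7 were lower, and 7 of 23 is a larger share than 2489 of 22626, which was not tested. The 7 belong to Krt8, Krt18, Dpp4 and Pdpn, so some genes were counted more than once. Of the 7, 4 were keratin probe sets, and 3 were among the 17 other than keratins. Unadjusted counts of the other lists with 6 arrays take both directions together and are read against 27.65%. The median log2 difference of the 23 was -0.25, against 0.05 over all probe sets. Without control 2 all 23 had a negative difference, the median was -0.56, and 3 were called lower, where 10.6% of all probe sets were. These were Bnc1, a zinc-finger protein of squamous epithelia (-0.68), Rspo1, a secreted activator of Wnt signalling (-1.05), and Efemp1, a fibulin of the extracellular matrix (-0.72), named after their values were seen. All 3 read lowest in YY1aKO 3 among the YY1aKO samples.

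The keratins of this list need the epididymal RNA beside them. Krt8, an intermediate filament protein of simple epithelia, read 431, 331 and 223 in YY1aKO 1 to 3, against 496, 4265 and 1860 in controls 1 to 3 (brightest of 3 probe sets, log2 difference -2.31, limma adjusted p = 0.12). Its groups did not overlap, and it was highest in controls 2 and 3, the samples with sperm and epididymal transcripts. Without control 1, which leaves those 2 controls, it was called lower (-3.15, adjusted p = 0.025), with its other 2 probe sets and Krt18 (4 of the 23). Without control 2 none of these 4 was called (-1.60, adjusted p = 0.090 for the brightest Krt8 probe set). Dpp4, a surface peptidase also made by fibroblast progenitors, read 478, 491 and 277 in YY1aKO, against 665, 711 and 759 in controls, and did not pass (-0.82 by its brighter probe set, limma adjusted p = 0.083, and -1.58 by the dimmer one, adjusted p = 0.077). Pdpn, podoplanin, read 988, 869 and 669 in YY1aKO, against 1201, 1543 and 1135 in controls (-0.62, limma adjusted p = 0.095). For Dpp4 and Pdpn the groups did not overlap, and YY1aKO 3 was again the lowest sample.

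Tcf21 encodes a basic helix-loop-helix transcription factor of mesenchymal cells that is made by white preadipocytes of visceral fat. It read 109.9, 108.3 and 105.4 in YY1aKO 1 to 3, against 136, 189 and 179 in controls 1 to 3. All YY1aKO samples lay below all controls, and the spread was far smaller in YY1aKO (107.8 ± 2.3) than in controls (168 ± 28.0; SD, n = 3 each). The log2 difference was -0.63 ± 0.14 (SE, interval -0.97 to -0.28, limma adjusted p = 0.046). Without control 2 it was -0.53 ± 0.13 (adjusted p = 0.030). The call was lost without control 3 (-0.57, adjusted p = 0.14) and without each YY1aKO sample in turn (-0.64 to -0.61, adjusted p of 0.14 to 0.17). Its higher values in controls 2 and 3 coincide with the epididymal and sperm transcripts of these samples, and the part of that RNA in the level of Tcf21 was not tested. Among genes of stromal cells, Pdgfra, the receptor that marks adipose progenitors, read 813, 725 and 792 in YY1aKO, against 953, 2275 and 1312 in controls (log2 difference -0.87, limma adjusted p = 0.14). Over the 17 progenitor and fibroblast probe sets the median log2 difference was -0.07, and none passed in limma (1 at an unadjusted p under 0.05). Without control 2, 8 had an unadjusted p under 0.05, where 37.6% of all probe sets did. In that fit 2 passed, where 24.4% of all probe sets passed. These 2 were Pdgfra (-0.53, limma adjusted p = 0.049) and Pi16 (-0.63, adjusted p = 0.0145), the latter named after its values were seen. The dimmer Pdgfra probe set, within the silent range, differed by -0.055 in that fit and did not pass (adjusted p = 0.75).

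Hoxc9 encodes a homeodomain transcription factor of the HoxC cluster. It read 296, 303 and 362 in YY1aKO 1 to 3, against 211, 156 and 207 in controls 1 to 3. All YY1aKO samples lay above all controls, and control 2 was the lowest sample. The log2 difference was 0.75 ± 0.16 (SE, interval 0.37 to 1.13, limma adjusted p = 0.037), and without control 2 it was 0.61 ± 0.11 (adjusted p = 0.014). The call was lost without control 3 (0.81, adjusted p = 0.090) and without each YY1aKO sample (0.66 to 0.80, adjusted p of 0.10 to 0.14), with the difference positive each time.

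Hoxc8, its neighbour in the cluster, did not pass. It read 1838, 2246 and 2014 in YY1aKO 1 to 3, against 2447, 1064 and 2053 in controls 1 to 3, a log2 difference of 0.21 with an interval of -0.56 to 0.98 (limma adjusted p = 0.71). Control 2 was lowest, at 47.3% of the other controls, and without it the difference was -0.15 with an interval of -0.45 to 0.16. A test of whether Hoxc9 and Hoxc8 changed unequally was not made.

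Hoxa5 encodes a homeodomain factor of the HoxA cluster. It read 273, 221 and 314 in YY1aKO 1 to 3, against 378, 231 and 401 in controls 1 to 3. The groups overlapped through control 2, and the log2 difference was -0.30 with an interval of -0.91 to 0.31 (limma adjusted p = 0.495). Without control 2 Hoxa5 was lower in YY1aKO (-0.55 ± 0.16, adjusted p = 0.049). In that fit 4 of the 11 probe sets were called, Hoxc9 higher and Tcf21, Wt1 and Hoxa5 lower, where 24.4% of all probe sets were called (13.9% higher and 10.6% lower).

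Of 28 further Hox genes, measured by 34 probe sets, 1 probe set was higher and 1 lower with 6 arrays, and the median log2 difference was -0.18. Hoxa9 fell by the probe set that read 50.3, 36.6 and 41.5 in YY1aKO 1 to 3, against 82.3, 194 and 128 in controls 1 to 3 (log2 difference -1.58 ± 0.32, SE, limma adjusted p = 0.036). Its values in YY1aKO lay within the range of the silent receptors, and those in controls were highest in controls 2 and 3. The other Hoxa9 probe set had a log2 difference of -0.07 and did not pass (adjusted p = 0.80), so the probe sets disagree. Hoxb13 rose within the silent range, at 44.2, 54.3 and 37.1 in YY1aKO, against 23.9, 19.2 and 25.9 in controls (0.97 ± 0.18, limma adjusted p = 0.029). Both calls were lost without control 3 and without each YY1aKO sample (adjusted p of 0.096 to 0.14 for Hoxa9 and 0.074 to 0.11 for Hoxb13), and that of Hoxb13 also without control 1 (0.052). Without control 2, 2 were higher and 5 lower, where 13.9% and 10.6% of all probe sets were. Among them were Hoxa7 (-1.08), Hoxc4 (-0.73) and Hoxd9 (0.64), named after their values were seen.

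Control 2 also stood apart in the Hox genes, differently by cluster. Over every Hox probe set, dim ones included, control 2 was the highest of the 6 arrays in 8 of 10 of the HoxB cluster and the lowest in the other 2, Hoxb7 and Hoxb13, which lay within the silent range. It was the lowest in 7 of 8 of the HoxC cluster, Hoxc8 and Hoxc9 included, and the highest in none. In the HoxA cluster it was the highest in 4 of 12 and the lowest in 3, and in the HoxD cluster the highest in 4 of 7 and the lowest in 1. Hoxb6 read 65.7, 72.9 and 90.5 in YY1aKO 1 to 3, against 117, 1940 and 237 in controls 1 to 3. Hoxd9 read 317, 334 and 339 in YY1aKO, against 198, 1478 and 228 in controls. Control 2 was also the sample with 114233 in the sum of epididymal genes, and the source of its Hox transcripts was not tested.

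**Figure D4:**
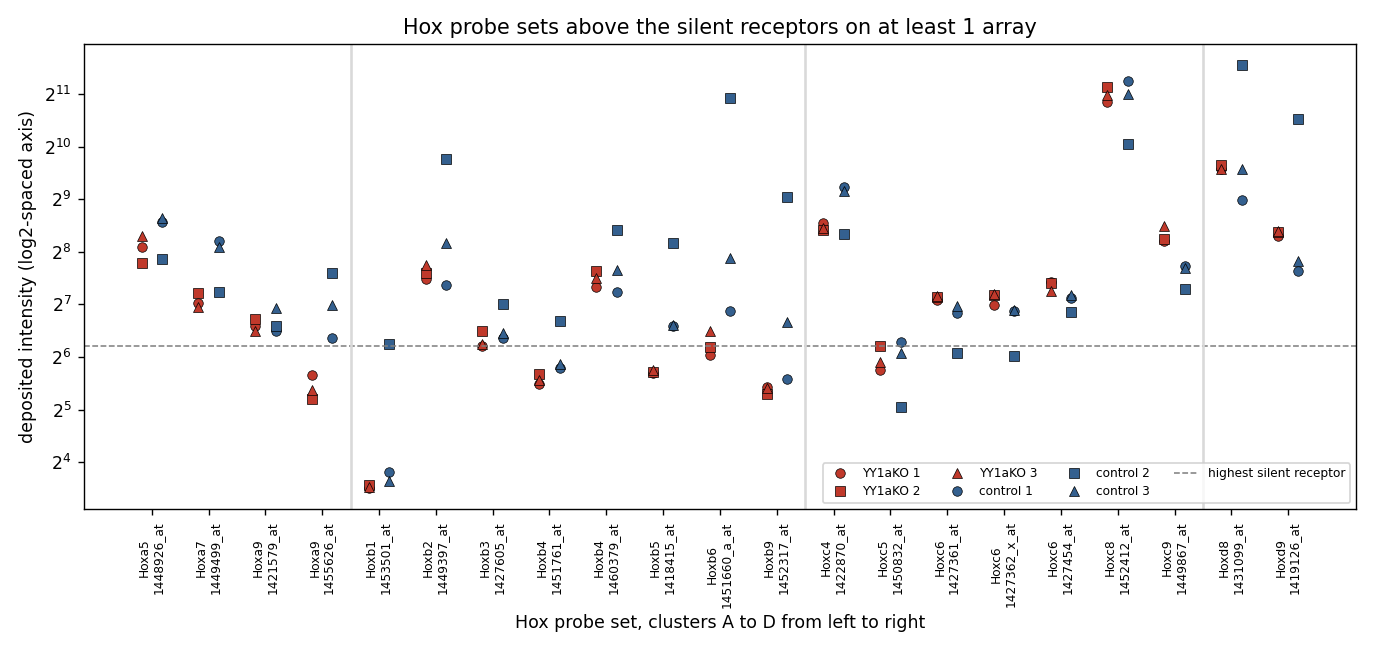
Deposited intensity (log2-spaced axis) of the 21 Hox probe sets with at least 1 value above the highest silent receptor (dashed line), ordered by cluster, with YY1aKO left of control for each. Control 2 is high for Hoxb6, Hoxd9 and other HoxB and HoxD probe sets and low for those of HoxC; Hoxb1 and one Hoxb4 probe set are drawn only because of their value in control 2.

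Tbx15 encodes a T-box transcription factor of subcutaneous fat and muscle. Its brighter probe set read 15.2, 16.4 and 15.5 in YY1aKO 1 to 3, against 14.1, 12.4 and 14.7 in controls 1 to 3. The dimmer one read 10.8, 12.3 and 9.68 in YY1aKO, against 9.99, 9.70 and 9.16 in controls. The log2 differences of 0.20 and 0.18 did not pass (intervals -0.04 to 0.44 and -0.10 to 0.46, limma adjusted p = 0.26 and 0.36), although the groups did not overlap for the brighter probe set. Shox2, a homeodomain factor of the limbs and of subcutaneous fat, read 13.6, 12.9 and 14.2 in YY1aKO, against 12.4, 13.1 and 14.2 in controls, a log2 difference of 0.04 with an interval of -0.19 to 0.26 (limma adjusted p = 0.84). All these values lay near the median of the silent receptors, where differences say little about a transcript. En1, another gene of subcutaneous fat, read 7.50 to 8.75 in YY1aKO and 7.19 to 8.75 in controls. Whether these probe sets would register the transcripts was not tested.

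Read as evidence on the depot, Upk3b, Msln, Tcf21, Hoxa5, Hoxc8 and Hoxc9 were above the highest silent receptor on all 6 arrays and Wt1 on 5, while Tbx15 and Shox2 were above it on none. The first group holds the genes of mesothelium and visceral fat named by the set and also Hoxc9, which is known for subcutaneous fat. Of 5 other genes known for visceral fat, 4 were above the silent receptors on all arrays (Gata6, Nr2f1, Gpc4 and Thbd), and Gata4 was not, with 39.8 to 51.0 for its brighter probe set. Of 7 measured genes of the subcutaneous list, only Sfrp2 was above the silent receptors on all arrays. Irx3 was above them on 5, and Tbx5 on 3 by its brighter probe set, with up to 86.1. Epididymal transcripts, which the pad named in the titles could bring, were high in control 2. Their sum was 114233 there and 1029 in control 3, against 278 in control 1 and 290.0 to 310.0 in YY1aKO. They thus bear on controls 2 and 3 and on no YY1aKO sample. No sample of either depot with a certain label is at hand, and the depot itself was not tested. The 8 lymph node probe sets, which an inguinal pad could bring, summed to 413 to 692 in YY1aKO and 297.7 to 651.5 in controls, and none was above the silent receptors on all arrays. Of these, Cd79b, a subunit of the B cell receptor, was above them on 5 arrays, with up to 146.6, and Ms4a1, the B cell antigen CD20, on 3, with up to 200.1, both highest in YY1aKO 1.

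Among the 7 probe sets of other visceral depot genes none passed between genotypes in limma with 6 arrays (1 at an unadjusted p under 0.05). Without control 2, 4 were lower (Gata6 by both its probe sets) and 0 higher, where 10.6% of all probe sets were lower and 13.9% higher. The median log2 difference of the 7 was then -0.63. It was -0.56 for the other mesothelial probe sets, -0.36 for those of endothelium and 0.02 over all probe sets. Thbd, the thrombin receptor thrombomodulin, read 774, 790.0 and 748.5 in YY1aKO 1 to 3, against 1842, 701 and 2241 in controls 1 to 3 (-1.40 without control 2, adjusted p = 0.0017, and -0.89 with all arrays, adjusted p = 0.25). Gata6, a zinc-finger factor of visceral mesoderm, read 279.5, 273.0 and 257.7 in YY1aKO, against 470.5, 164.2 and 443.7 in controls by its brighter probe set (-0.76 without control 2, adjusted p = 0.0034). Gpc4, a glypican of the cell surface, read 499.9, 529.0 and 474.2 in YY1aKO, against 742, 1538 and 807 in controls (-0.63 without control 2, adjusted p = 0.0067). Gata6 was named after its values were seen. The 9 probe sets of other subcutaneous depot genes gave no call with 6 arrays (2 at an unadjusted p under 0.05) and 1 lower call without control 2. That call was Sfrp2, a secreted Wnt modulator, at 273, 259.5 and 140.0 in YY1aKO, against 680, 159 and 453 in controls (-1.37, adjusted p = 0.030). Irx3, a homeodomain factor, read 432, 240.3 and 418.5 in YY1aKO, against 227.5, 71.5 and 132 in controls, and did not pass (1.45, limma adjusted p = 0.10). Irx3 passed without control 1 (1.86, adjusted p = 0.046), but not without any other single sample, control 2 among them (1.02, adjusted p = 0.072).

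Other members of the gene families gave little. Of the uroplakins, Upk2 read 190.4, 194.0 and 195.0 in YY1aKO, against 160.1, 130.0 and 164.3 in controls (0.36, limma adjusted p = 0.11), and Upk1a and Upk3a, which build the bladder plaques with Upk2, lay within the silent range on all arrays. None of the 5 uroplakin probe sets, those of Upk3b included, passed in limma (1 at an unadjusted p under 0.05). Without control 2, 2 had such a p, where 37.6% of all probe sets did, and again none passed. Of 10 other T-box genes with 14 probe sets none passed in limma (3 at an unadjusted p under 0.05). Tbx2 had the smallest adjusted p (0.12) and read 36.9, 33.4 and 28.9 in YY1aKO, against 49.4, 362 and 143 in controls, high again in the samples with epididymal and sperm transcripts. It was called lower without control 1 (-2.79, adjusted p = 0.026), but not without any other single sample, control 2 among them (-1.35, adjusted p = 0.062).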

How the data were processed

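The authors deposited 1 intensity per probe set and array. Per the submitters' processing notes RMA was used, with version and settings not given in the sources used here. RMA corrects background, equalises the arrays and summarises the probes of a set, which takes out shifts common to all genes. The deposited intensities lie on a linear scale (6.09 to 30322), and their log2 was taken. After 64 array control probe sets were left out, 22626 remained, of which 20380 had 1 gene symbol in the platform annotation (20351 matched the reference gene table, 0 symbols changed). The number of arrays limits the precision.

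Groups came from the sample titles. limma 3.58.1 in R 4.3.3 (lmFit, eBayes) was fitted to every probe set, with Benjamini-Hochberg adjustment over all of them, a threshold of 0.05 and two-sided tests, as YY1aKO minus control. The scripts were tested on simulated data. The members and the gene lists were chosen with earlier results of these data known. Of each other list, up to 4 probe sets with the smallest adjusted p may be named, with key genes and the closest profiles of 3 members. Genes outside this rule are marked, or are named for a level, a marker or a family pattern. Silent receptors describe background only, since probe sets differ in brightness. Alternatives covered the feature tested, filter, scaling, prior, array weights, replicate numbers as a block, each sample left out, a pseudocount of 16 and the threshold. Counts of the lists without control 2 were added after seeing the data.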

Additional observations from a re-analysis of the deposited data

How the results depend on the processing

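Tcf21 and Hoxc9 kept their direction in every alternative that was run, with log2 differences of -0.77 to -0.53 and 0.61 to 0.83, but their calls depend on which sample is left out: both were kept without control 1 or control 2, and lost without control 3 or any YY1aKO sample. With each sample left out in turn, 0 to 1 of the 11 probe sets were called higher and 0 to 3 lower. Tcf21 also lost its call with quantile normalization again (adjusted p = 0.055), the same median on every array (0.051) and an intensity trend with a robust prior (0.055), so that 0 were lower there. Array weights, whose estimation stopped before its tolerance was reached, gave 3 lower, and at an adjusted p of 0.01 there were 0 higher and 0 lower. The differences of Upk3b, Wt1, Msln, Hoxc8 and Shox2 are near 0 and change sign. With samples left out they ran from -0.48 to 0.35 and -0.49 to 0.26 for Upk3b, -0.58 to 0.22 for Wt1, -0.45 to 0.31 for Msln, -0.15 to 0.46 for Hoxc8 and -0.008 to 0.085 for Shox2. Array weights gave -0.42 and -0.43 for Upk3b, -0.025 for Hoxc8 and -0.05 for Shox2, quantile normalization -0.024 for the brighter Upk3b probe set, and the same median 0.029 for Msln. Other mesothelial probe sets called lower were 0 to 4 with samples left out, 11 with array weights and 3 at an adjusted p of 0.10.

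Over all probe sets 1479 were higher and 827 lower. These counts were 10 to 3142 and 8 to 2390 with samples left out, 849 and 495 with 1 probe set per gene, 881 and 478 with the mean of a gene's probe sets, 5192 and 4203 with array weights, 94 and 76 at an adjusted p of 0.01, and 2587 and 1554 at 0.10. Without YY1aKO 1, 2 and 3 in turn, 79, 10 and 14 were higher and 48, 8 and 14 lower. Without control 3 there were 139 and 120, without control 1 there were 1291 and 1009, and without control 2 there were 3142 and 2390. The lost calls of Tcf21 and Hoxc9 thus fall in the fits where calls over all probe sets were fewest, and the cause was not tested. Deviations from the group mean had correlations of -0.10, -0.08 and -0.10 for same-numbered samples over all probe sets. Differently numbered samples had correlations of 0.027 to 0.067. Deviations from a group's own mean depend on each other, so these values cannot decide whether the replicate number pairs samples. The labels do not say. With a replicate block 6 were higher and 10 lower over all probe sets, and 0 members were called in either direction.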

Other observations

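In the marker lists for other cells, 2 genes passed with 6 arrays. Tnnc2, the troponin C of fast skeletal muscle, rose, at 145, 248 and 124 in YY1aKO 1 to 3, against 35.5, 22.0 and 33.1 in controls 1 to 3 (log2 difference 2.48 ± 0.31, SE, limma adjusted p = 0.013). The other 10 probe sets of the skeletal muscle list did not pass. Myh11, the myosin heavy chain of smooth muscle, fell by its brighter probe set, at 238, 237.5 and 272 in YY1aKO, against 498, 502 and 411 in controls (-0.91 ± 0.12, adjusted p = 0.014), and the other 11 probe sets of the smooth muscle and pericyte list did not pass. Without each YY1aKO sample both calls were lost (adjusted p of 0.060 to 0.067 for Tnnc2 and 0.067 to 0.081 for Myh11), and without control 3 that of Tnnc2 was (0.056).

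None of the probe sets passed in limma for mature adipocytes (16, of which 1 had an unadjusted p under 0.05), endothelium (10 and 0), macrophages (9 and 0), lymph node (8 and 0), sperm and testis (14 and 3), epididymal epithelium (13 and 0) or skin, mammary and other epithelia (20 and 4). Without control 2 there was 1 lower call for mature adipocytes, 2 for endothelium and 1 for other epithelia, where 10.6% of all probe sets were lower.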
